A study of Mus musculus with 21 samples.

Results

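The 36 genes described here act when DNA is copied, in S phase, or when the copied chromosomes are separated, in mitosis. They were chosen by name, with earlier results of these data known, so counts of them are no independent test. All 36 were found by gene symbol among the 20872 genes of the deposited table. They are 8 S-phase genes, 26 mitotic genes and the 2 E-type cyclins. RNA of mouse aortic valves was measured in 21 libraries, and every mouse, WT included, was Terc-/- of generation 2 and so lacked the RNA template of telomerase. The WT group (n = 4) had both copies of Notch1 (N1+/+), a healthy valve and solvent injections. The other mice were N1+/- and are called N1het, since they carry 1 working copy of this cell surface receptor gene. They gave healthy valves after solvent (N1het healthy, n = 6) or XCT790 (N1het healthy XCT790, n = 5), and valves with stenosis, a narrowed opening, after solvent (N1het stenosis, n = 3) or XCT790 (N1het stenosis XCT790, n = 3). XCT790 is an inverse agonist of the nuclear receptor ERRα and was injected daily at 5 mg/kg/day. In every group, with solvent or XCT790, treatment lasted 4 weeks from an age of 4 weeks. All groups lacked Terc, so nothing here compares with mice that have telomerase, and the labels do not say whether libraries of a group came from separate animals. If they did not, each p measures only the spread between these libraries.

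A dividing cell first licenses its origins of replication with the MCM helicase, then copies its DNA around the sliding clamp PCNA with nucleotides that enzymes such as ribonucleotide reductase supply. Cyclin A and cyclin B then activate the kinase CDK1, the kinesins and the Aurora and Polo kinases build the spindle, and the anaphase-promoting complex, started by CDC20, degrades cyclin B so that the cell can divide. S-phase genes are mainly switched on by E2F factors at the end of G1, whereas many mitotic genes peak later and share 2 promoter elements, the CCAAT box and the cell cycle genes homology region. MCM proteins and PCNA are also found in cells that are preparing to divide or repairing DNA, and most cells of a healthy adult valve divide rarely.

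The group names follow the sample titles, and a separate agent field contradicts the title in 6 libraries. That field gives solvent for N1het healthy XCT790 1, 2 and 3 and XCT790 for N1het stenosis 1, 2 and 3. The names of the deposited FPKM columns place these 6 libraries in the same groups as the titles. The authors' deposited group means were reproduced from the title groups, with a largest relative gap of 2.83e-07. Which agent these 6 libraries had was not tested. If the field were right, no stenotic valve would have had solvent. By the field, valve state and agent could not be told apart where N1het stenosis is set against healthy valves of the solvent groups. XCT790 against solvent in stenotic valves would then have XCT790 on both sides, also where that difference is set against the one in healthy valves. The libraries held 8.42 to 27.3 M reads, and 6 of them, with 17.7 M or more, are called the deepest libraries here (WT 1, N1het healthy 1 and 4, N1het healthy XCT790 1 and 2, N1het stenosis XCT790 2). WT 1, WT 4 and N1het healthy 3 had the lowest mean correlation with the other libraries (r of 0.768, 0.782 and 0.789, against up to 0.850) and held 7, 6 and 6 of the 26 mitotic genes at 0. Genes that mark interstitial cells of the valve and fibroblasts were strongly detected in every library (14 genes, summing to 6696 to 14297 FPKM, a read level scaled for gene length and sequencing depth), and those of cardiomyocytes varied from 36.2 to 5165 FPKM.

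The promoters of the 5 mitotic genes with the smallest p in stenotic against healthy N1het valves that have an entry, and of the S-phase gene with the smallest p there, are shown so that the elements counted in the next paragraph can be seen in place. Each line is the 180 bases before the start of the gene, 5′ to 3′ on the strand of the gene, from RefSeq with the build GRCm38.p6, which is not the build mm9 of the expression files. Capitals mark 3 elements, each searched on either strand, so that some read as the reverse complement. The cell cycle genes homology region was searched as TTTGAA and the box bound by NF-Y as CCAAT. The E2F element was searched as TTGGCGC and, as another form, as TTCCCGC. Cdc2a is the symbol in the table for Cdk1. The lines come from chr10:69352913-69353092 (minus strand) for Cdc2a, chr2:164769749-164769928 (plus) for Ube2c, chr6:124829996-124830175 (plus) for Cdca3, chr9:61946800-61946979 (minus) for Kif23, chr19:37376202-37376381 (plus) for Kif11 and chr8:75109329-75109508 (plus) for Mcm5.
Cdc2a: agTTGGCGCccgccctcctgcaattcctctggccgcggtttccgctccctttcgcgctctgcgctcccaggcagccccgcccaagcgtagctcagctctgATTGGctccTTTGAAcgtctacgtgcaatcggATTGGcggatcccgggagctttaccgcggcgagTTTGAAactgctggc
Ube2c: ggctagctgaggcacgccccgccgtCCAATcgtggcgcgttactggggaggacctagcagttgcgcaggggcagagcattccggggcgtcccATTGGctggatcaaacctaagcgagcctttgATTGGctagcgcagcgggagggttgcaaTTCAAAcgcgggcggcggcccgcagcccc
Cdca3: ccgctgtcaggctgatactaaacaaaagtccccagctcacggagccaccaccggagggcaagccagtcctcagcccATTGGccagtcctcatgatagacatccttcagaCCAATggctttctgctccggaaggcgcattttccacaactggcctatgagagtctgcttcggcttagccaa
Kif23: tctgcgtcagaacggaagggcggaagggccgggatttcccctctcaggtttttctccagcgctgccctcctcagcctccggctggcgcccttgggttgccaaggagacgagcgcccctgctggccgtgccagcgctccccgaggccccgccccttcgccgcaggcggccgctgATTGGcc
Kif11: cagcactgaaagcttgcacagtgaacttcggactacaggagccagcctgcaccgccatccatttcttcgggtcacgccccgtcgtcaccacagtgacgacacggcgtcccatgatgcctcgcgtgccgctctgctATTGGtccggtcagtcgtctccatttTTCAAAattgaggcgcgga
Mcm5: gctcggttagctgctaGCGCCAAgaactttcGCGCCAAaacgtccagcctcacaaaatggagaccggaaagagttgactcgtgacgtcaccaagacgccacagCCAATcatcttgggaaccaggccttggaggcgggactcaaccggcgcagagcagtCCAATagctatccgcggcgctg
In Cdc2a a TTTGAA began 15 bases before the start and another 71 bases before it, and in Ube2c and Kif11 the element began 29 and 19 bases before it. Cdca3 and Kif23 held the element 30 and 2 bases after the start, outside the printed stretch. Mcm5 held no TTTGAA in its window and had an E2F form at 164 and 149 bases before the start.

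Over the whole window of 250 bases before to 50 after the start, 30 of the 36 genes had an entry, and Tpx2, Ccna2, Aurkb, Kif20a, Mcm4 and Ccne2 had none. TTTGAA stood in 17 of 22 mitotic promoters (77.3%) and in 1 of 7 S-phase promoters (14.3%), against 17.9% of all 32851 promoters in the table. The CCAAT box stood in 19 of 22 mitotic (86.4%) and 6 of 7 S-phase promoters (85.7%), against 37.4% of all. An E2F form was found in 3 of 22 mitotic (13.6%) and 3 of 7 S-phase promoters (42.9%), against 6.81% of all. A pair of CCAAT boxes that begin 31 to 34 bases apart, a spacing chosen after the positions were seen, occurred in 7 mitotic promoters (31.8%), in 0 of the 7 S-phase promoters and in 1.20% of all. These are matches of letters and say nothing of binding in the valve.

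The mitotic genes as a class were highest in the stenotic valves of the solvent group, and the S-phase genes spread less between groups. The summed level of the 26 mitotic genes was 168, 93.5 and 102 FPKM in N1het stenosis 1 to 3. It was 29.6 to 69.5 FPKM (median 48.6) in the 6 N1het healthy libraries and 68.9, 70.5, 45.8 and 43.5 FPKM in WT 1 to 4. All 3 stenotic libraries of the solvent group lay above all 10 libraries of the other 2 solvent groups. After XCT790 the sum was 36.6, 39.7, 62.8, 89.6 and 93.9 FPKM in N1het healthy XCT790 1 to 5 and 44.6, 45.7 and 101 FPKM in N1het stenosis XCT790 1 to 3. In each XCT790 group some libraries stood near the healthy valves and others near the stenotic ones. In N1het healthy XCT790 the 3 lower libraries are those whose agent field gives solvent, and the 2 lowest are also among the deepest libraries, so that field and depth cannot be told apart there.

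**Figure D1:**
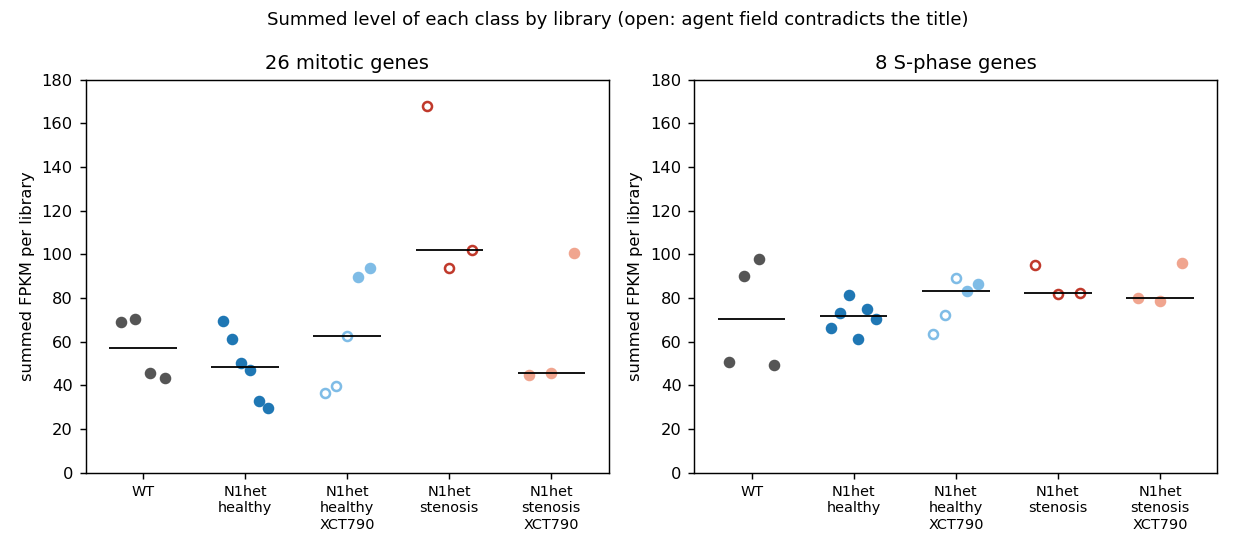
Summed FPKM of the 26 mitotic genes (left) and of the 8 S-phase genes (right) in each of the 21 libraries by group, with a line at the group median and open circles for the 6 libraries whose agent field contradicts the title. The mitotic sum reached 93.5 to 168 FPKM in N1het stenosis and stayed at or below 70.5 FPKM in WT and N1het healthy, while the S-phase sums of all groups lay between 49.4 and 97.7 FPKM.

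The S-phase sum was 50.9, 90.1, 97.7 and 49.4 FPKM in WT, 61.1 to 81.3 FPKM (median 71.8) in N1het healthy, 63.4, 72.1, 88.9, 83.3 and 86.3 FPKM in N1het healthy XCT790, 94.9, 82 and 82.2 FPKM in N1het stenosis and 79.9, 78.8 and 95.9 FPKM in N1het stenosis XCT790. All libraries of the other groups lay within the WT range of 49.4 to 97.7 FPKM. The 3 N1het stenosis libraries lay above all 6 of N1het healthy, the nearest at 82 against 81.3 FPKM, and without Pcna the sums of these 2 groups overlapped (43 to 49.5 against 38.9 to 46.8 FPKM). Pcna was the most abundant of the 36 genes per length (mean 32.6 FPKM), followed by Mcm6 (14.2 FPKM), Mki67 (10.8 FPKM) and Mcm4 (10.2 FPKM). Each of the other 32 genes had a mean under 10 FPKM, and Ccnb1, Bub1, Kif2c and Ccne1 had a mean under 1 FPKM. The mitotic genes stand on few reads: between 0 and 12 of the 26 had fewer than 10 reads in a library. They were listed at 0 in 16.3% of the values in WT, 9.62% in N1het healthy, 3.85% in N1het healthy XCT790 and 1.28% in each of N1het stenosis and N1het stenosis XCT790. In N1het stenosis 24, 21 and 21 of the 26 reached 1 FPKM, and in N1het stenosis XCT790 14, 13 and 21 did. Between libraries of a group, the log2 level of a tested mitotic gene had a median SD of 0.78, against 0.58 for the S-phase genes and 0.67 for all genes tested. Genes whose mean level lay within the range of the tested mitotic genes had a median SD of 0.77.

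**Figure D2:**
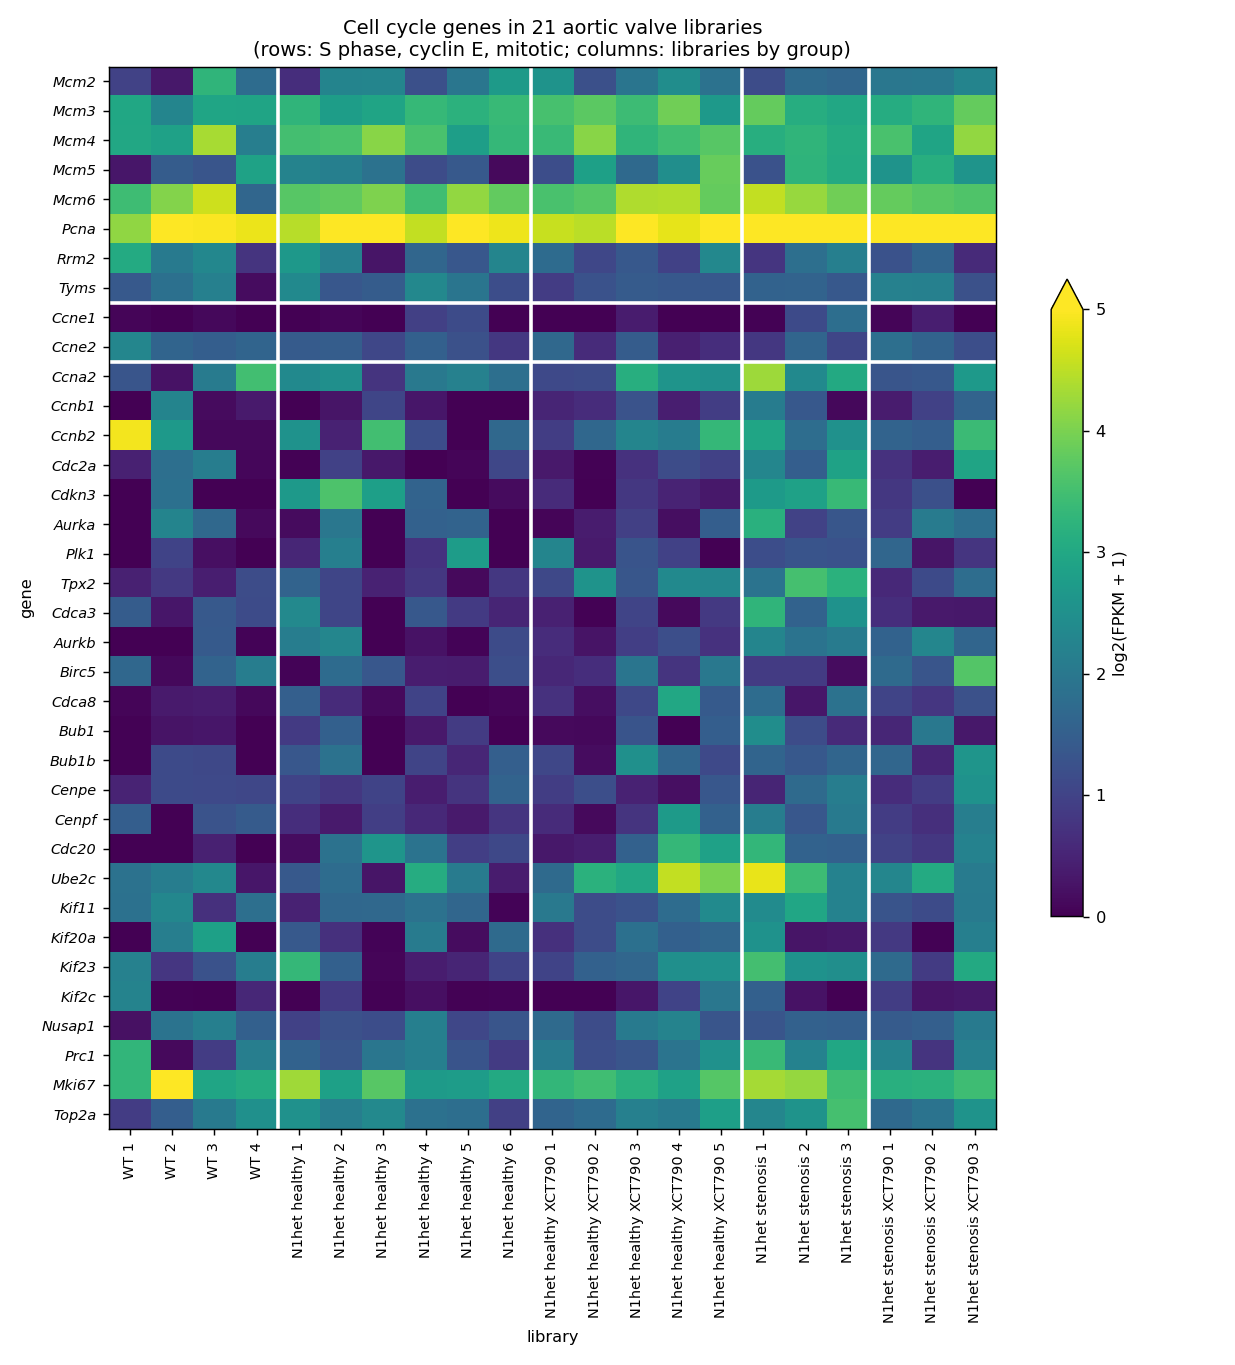
log2(FPKM + 1) of the 36 genes (rows) in the 21 libraries (columns, by group), with white lines between classes and groups and a colour scale that saturates at 5. The row of Pcna is bright in every library, and the mitotic rows are brightest in N1het stenosis 1, where 7 of the 26 mitotic genes had their highest value of all libraries.

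In stenotic against healthy N1het valves of the solvent groups, nearly all mitotic genes had higher levels and the S-phase genes did not lean one way. Of the 26 mitotic genes, 25 were higher in the stenotic valves, with a median log2 difference of 0.89 on the log2(FPKM + 1) scale, which understates the change of low genes. Over all 14966 genes tested, 46.8% were higher and the median was -0.04. The 8 S-phase genes divided evenly, 4 higher and 4 lower, with a median of 0.00. No member passed the test of limma at an adjusted p under 0.05, which 0.0334% of all genes tested did (5 genes). At an unadjusted p under 0.05, 8 of the 26 mitotic genes were higher and 0 lower, against 4.59% of all genes tested that were higher. All 8 were among the 23 that passed the filter. limma-voom on the recovered reads gave 12 of those 23 with 0 called, and limma without the filter gave 9 of the 26. Counts at that p by limma-voom and with libraries left out are over those 23, here and below. Every share of all genes given here is that of the limma fit with the filter and all libraries. Counts at that p from any other fit stand without such a share, so they cannot be set against all genes. The 3 stenotic libraries lay above all 6 healthy ones for 5 of the 26 (Tpx2, Cdc2a, Kif11, Prc1 and Cenpf), against 2.72% of all genes tested.

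Of the 26, 3 (Ccnb1, Bub1 and Kif2c) had a mean under 1 FPKM and were fitted without that filter. Cdca3 passed the filter only with the stenotic group included, Cdca8 only with it and with N1het healthy XCT790, and Plk1 only with N1het healthy. Without N1het stenosis 1 the number of mitotic genes at an unadjusted p under 0.05 was 4 and the median difference 0.68, with 23 of 26 higher. Within the 15 libraries outside the deepest 6 the number was 8 and the median 0.99, and without WT 1, WT 4 and N1het healthy 3 they were 9 and 0.94. With a pseudocount of 0.1 in place of 1 the median was 1.73, and by limma-voom it was 2.09. A higher level in a whole valve can come from more cells in mitosis or from more RNA per cell, which cannot be told apart here. Markers of macrophages and monocytes moved with these genes: 24 of 24 were higher in the stenotic valves (median log2 difference 1.44, 22 at an unadjusted p under 0.05, 0 called). Their summed level was 4842 to 8912 FPKM in N1het stenosis against 1251 to 2914 FPKM in N1het healthy and 1646 to 2956 FPKM in WT, and no marker on the list was under 0.5 FPKM in every library. The 14 markers of interstitial cells and fibroblasts summed to 6696 to 7756 FPKM in N1het stenosis against 8975 to 14297 FPKM in N1het healthy, and 13 of the 14 were lower. The 6 mitochondrially encoded genes in the table were all higher too (median 1.59, 0 at an unadjusted p under 0.05). Their reads were 1.45 to 6.03% of a library in N1het stenosis and 0.0884 to 6.09% in N1het healthy. The part of these cell types and of the mitochondrial reads in the result was not tested.

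**Figure D3:**
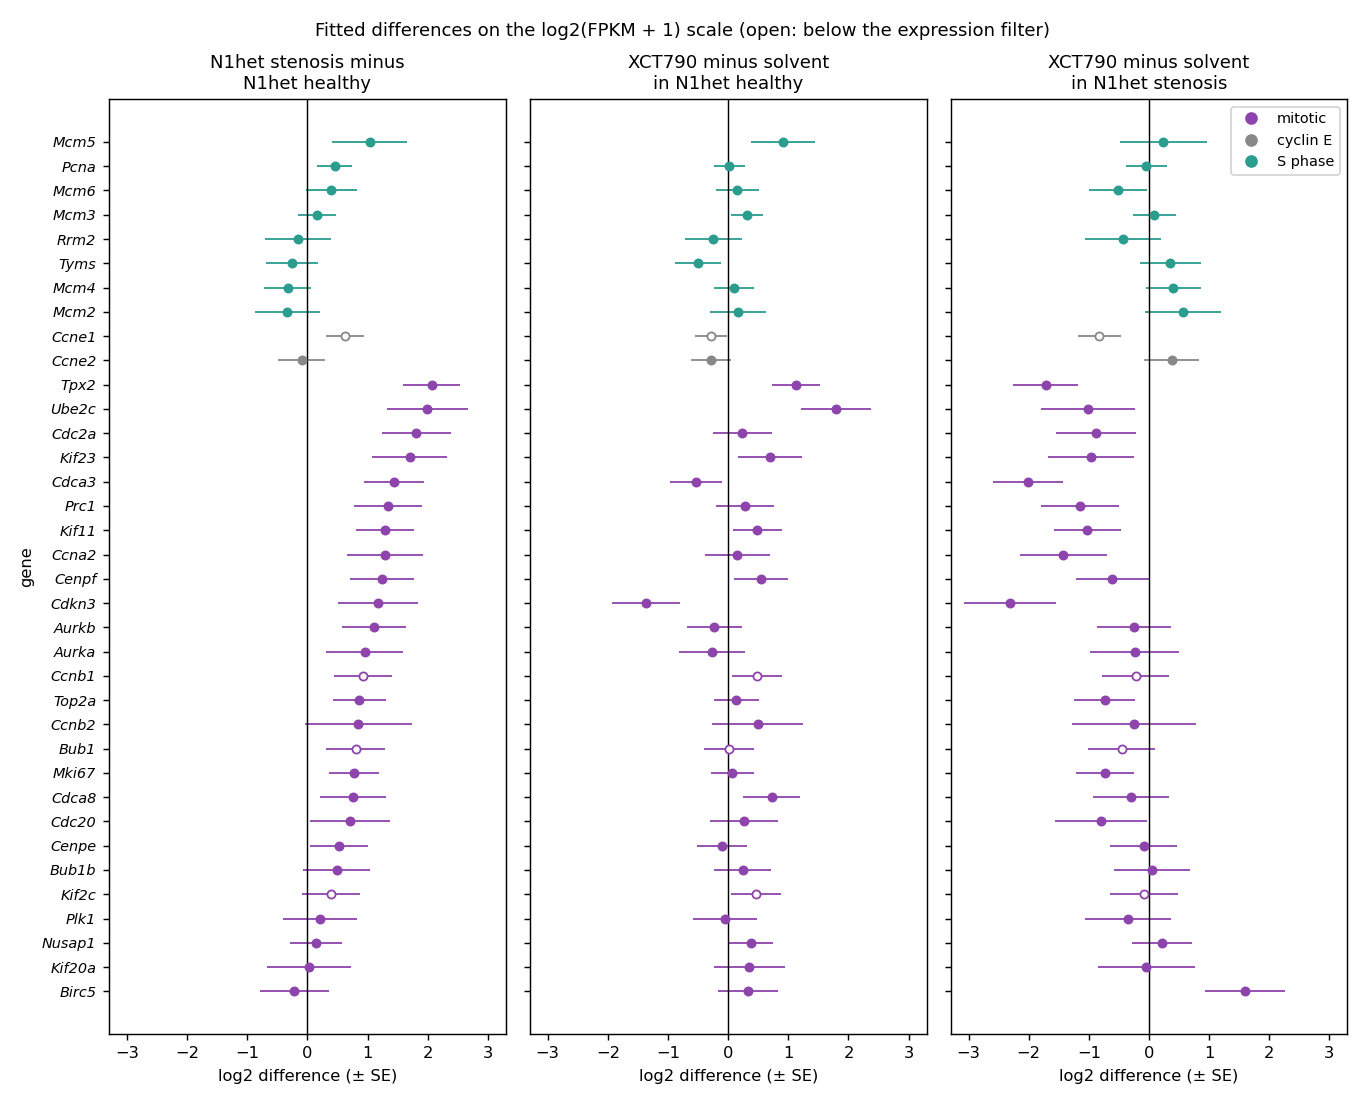
Fitted log2 difference ± SE of each of the 36 genes for stenosis against healthy N1het valves (left), XCT790 in healthy valves (middle) and XCT790 in stenotic valves (right), ordered within each class by the left panel, with open circles for genes below the expression filter. On the left 25 of 26 mitotic genes lie right of 0, on the right 23 of 26 lie left of it, and both panels use the same 3 N1het stenosis libraries.

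Among the cyclins, the kinase they activate and its phosphatase, Cdc2a stood out. Cdc2a, the mitotic kinase CDK1, was at 3.9, 1.83 and 6.33 FPKM in N1het stenosis 1 to 3 and at 0 to 1.09 (median 0.155) FPKM in N1het healthy. The ranges did not overlap, and the log2 difference was 1.81 ± 0.58 (± SE, as for all differences that follow, adjusted p = 0.292). In WT it was at 0.378, 2.57, 3.32 and 0.069 FPKM, so 2 WT libraries fell within the stenotic range. XCT790-treated healthy valves had 0.269, 0.0259, 0.638, 1.24 and 0.957 FPKM and XCT790-treated stenotic valves 0.635, 0.328 and 6.59 FPKM, of which the third, N1het stenosis XCT790 3, was the highest of all 21 libraries. Ccna2, cyclin A2, which acts in S phase and at entry into mitosis, was at 18.3, 4.18 and 7.2 FPKM in N1het stenosis and 0.678 to 4.6 (median 3.34) FPKM in N1het healthy. Of the stenotic values, the lowest lay within the healthy range, and the difference was 1.28 ± 0.63 (adjusted p = 0.535). The other groups spread widely for Ccna2, with 1.49, 0.188, 3.21 and 10.3 FPKM in WT, 1.16, 1.22, 7.74, 5.01 and 4.69 FPKM in N1het healthy XCT790 and 1.5, 1.58 and 5.56 FPKM in N1het stenosis XCT790.

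The B-type cyclins were low and scattered. Ccnb1 was at 3.31, 1.58 and 0.0799 FPKM in N1het stenosis, 0 to 1.07 (median 0.112) FPKM in N1het healthy and 0, 3.76, 0.108 and 0.287 FPKM in WT. Its highest value of all was in WT 2, and the stenotic group held a value as low as the healthy ones (0.92 ± 0.48 by the fit without a filter). After XCT790 it was at 0.429, 0.55, 1.42, 0.335 and 0.881 FPKM in healthy and 0.295, 0.942 and 2.03 FPKM in stenotic valves. Ccnb2 was at 6.66, 2.43 and 4.75 FPKM in N1het stenosis, 0 to 10.3 (median 1.76) FPKM in N1het healthy and 29, 5.54, 0.0732 and 0.0776 FPKM in WT, so WT held both the highest value and values near 0 (0.85 ± 0.89 against N1het healthy). Cdkn3, a phosphatase that acts on cyclin-dependent kinases, was at 5.6, 6.26 and 9.33 FPKM in N1het stenosis and 0, 2.61, 0 and 0 FPKM in WT. N1het healthy split, with 0 to 11.1 (median 3.79) FPKM and 4 of 6 libraries above 2 FPKM. After XCT790, Cdkn3 was at 0.529, 0, 0.748, 0.404 and 0.253 FPKM in healthy and 0.751, 1.32 and 0 FPKM in stenotic valves.

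Of the mitotic kinases and their activators, Tpx2 had the smallest p of all 36 genes in this comparison. Tpx2, which activates Aurora A on spindle microtubules, was at 2.74, 10.6 and 8.16 FPKM in N1het stenosis, 0.0921 to 2.02 (median 0.755) FPKM in N1het healthy and 0.373, 0.78, 0.337 and 1.25 FPKM in WT. The 3 stenotic libraries lay above every N1het healthy library, as for 2.72% of all genes tested, and above every WT library, as for 5.05%. The difference from N1het healthy was 2.06 ± 0.47 with an adjusted p of 0.13. The authors' deposited table marks Tpx2 as changed in stenosis against both N1het healthy and WT, where it marks 1.26% and 1.35% of its genes. XCT790-treated healthy valves were at 1.12, 4.94, 1.53, 4.2 and 3.98 FPKM and XCT790-treated stenotic valves at 0.484, 1.18 and 2.44 FPKM. Cdca3, a trigger of mitotic entry, was at 8.68, 1.97 and 4.84 FPKM in N1het stenosis, 0 to 4.13 (median 0.928) FPKM in N1het healthy and 1.75, 0.23, 1.64 and 1.2 FPKM in WT. Its stenotic values lay above all 4 WT values but overlapped the healthy N1het ones, where 1 library reached 4.13 FPKM (1.44 ± 0.50, adjusted p = 0.331). After XCT790 it was at 0.38, 0.0156, 1.02, 0.0965 and 0.787 FPKM in healthy and 0.583, 0.276 and 0.25 FPKM in stenotic valves.

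The genes of Aurora A and of the Polo kinase overlapped between stenotic and healthy N1het valves. Aurka, Aurora A itself, was at 8.05, 0.981 and 1.52 FPKM in N1het stenosis and 0 to 2.98 (median 1.02) FPKM in N1het healthy (0.95 ± 0.64), and 1 stenotic library stood far above the other 2. WT had 0, 3.8, 2.21 and 0.0939 FPKM, N1het healthy XCT790 0.0478, 0.3, 0.926, 0.137 and 1.82 FPKM and N1het stenosis XCT790 0.864, 3.21 and 2.5 FPKM. Plk1, the Polo kinase, was at 1.26, 1.47 and 1.38 FPKM in N1het stenosis, the tightest group, and at 0 to 5.83 (median 0.556) FPKM in N1het healthy (0.21 ± 0.62). In WT it was at 0, 1.01, 0.156 and 0 FPKM, below all 3 of N1het stenosis, in N1het healthy XCT790 at 3.82, 0.29, 1.46, 0.964 and 0 FPKM and in N1het stenosis XCT790 at 2.12, 0.21 and 0.712 FPKM.

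The chromosomal passenger complex, which corrects faulty attachments of chromosomes to the spindle, had members with unlike patterns. Aurkb, its kinase Aurora B, was at 3.84, 2.72 and 3.22 FPKM in N1het stenosis and 1.96, 3.91 and 2.12 FPKM in N1het stenosis XCT790. WT had 0, 0, 1.67 and 0.0403 FPKM, N1het healthy 0 to 3.9 (median 0.703) FPKM and N1het healthy XCT790 0.561, 0.197, 0.895, 1.29 and 0.648 FPKM. In N1het healthy, 2 libraries reached the stenotic level. Birc5, survivin, was the 1 mitotic gene with a lower fitted level in stenosis: 0.817, 0.829 and 0.13 FPKM against 0.0315 to 2.35 (median 0.799) FPKM in N1het healthy (-0.21 ± 0.58). It was at 2.2, 0.0831, 2.01 and 3.35 FPKM in WT, 0.462, 0.577, 2.84, 0.691 and 3.01 FPKM in N1het healthy XCT790 and 2.32, 1.48 and 11.6 FPKM in N1het stenosis XCT790, and N1het stenosis XCT790 3 stood far above all other libraries. Cdca8, borealin, was at 2.43, 0.232 and 2.68 FPKM in N1het stenosis, 0 to 1.85 (median 0.309) FPKM in N1het healthy and 0.0478, 0.291, 0.3 and 0.0734 FPKM in WT. Its difference in stenosis was 0.76 ± 0.55, and XCT790-treated valves were at 0.647, 0.138, 1.12, 6.98 and 1.68 FPKM (healthy) and 1.05, 0.733 and 1.37 FPKM (stenotic).

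At the kinetochore, the plate on which spindle fibres pull, Cenpf separated the groups and the checkpoint kinases did not. Cenpf was at 3.35, 1.57 and 3.16 FPKM in N1het stenosis and 0.279 to 0.9 (median 0.53) FPKM in N1het healthy, without overlap (1.24 ± 0.53, adjusted p = 0.442). WT was at 1.81, 0.00849, 1.42 and 1.71 FPKM, so 3 of its 4 libraries also lay above all of N1het healthy, and XCT790-treated valves were at 0.527, 0.0925, 0.673, 5.6 and 1.94 FPKM (healthy) and 0.858, 0.596 and 3.4 FPKM (stenotic). Cenpe, the kinesin that carries chromosomes to the spindle equator, was at 0.431, 2.31 and 3.32 FPKM in N1het stenosis and 0.323 to 2.01 (median 0.881) FPKM in N1het healthy, so 1 stenotic library was low (0.52 ± 0.48). It was at 0.404, 1.18, 1.16 and 1.08 FPKM in WT, 0.87, 1.29, 0.402, 0.159 and 1.55 FPKM in N1het healthy XCT790 and 0.559, 0.859 and 4.86 FPKM in N1het stenosis XCT790. Bub1, a kinase of the spindle checkpoint, was at 4.45, 1.24 and 0.506 FPKM in N1het stenosis, 0 to 1.9 (median 0.541) FPKM in N1het healthy and 0.0213, 0.195, 0.231 and 0 FPKM in WT (0.80 ± 0.48 against N1het healthy). Its partner Bub1b was at 2.06, 1.58 and 2.11 FPKM, 0 to 2.71 (median 1.3) FPKM and 0.0217, 1.17, 1.13 and 0 FPKM (0.49 ± 0.55). For both genes the stenotic libraries overlapped N1het healthy and lay above all 4 of WT. After XCT790 Bub1 was at 0.0925, 0.082, 1.46, 0 and 1.83 FPKM in healthy and 0.443, 2.98 and 0.258 FPKM in stenotic valves, and Bub1b at 1.1, 0.115, 4.73, 2.1 and 1.14 FPKM and 2.14, 0.423 and 5.09 FPKM.

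The genes that start anaphase were high in single libraries of several groups. Ube2c, the ubiquitin-conjugating enzyme of the anaphase-promoting complex, was at 27.5, 9.72 and 3.68 FPKM in N1het stenosis and 0.22 to 7.54 (median 2.02) FPKM in N1het healthy (1.99 ± 0.67, adjusted p = 0.314). In WT it was at 2.68, 3.33, 4.07 and 0.237 FPKM. After XCT790 it was at 2.33, 8.09, 7.04, 22.4 and 15 FPKM in healthy and 3.94, 7.34 and 3.21 FPKM in stenotic valves, so the highest values came from N1het stenosis 1 and from N1het healthy XCT790 4 and 5. Cdc20, the activator of that complex, was listed at 0 in 3 of 4 WT libraries and at 0.37 FPKM in WT 3, while it was detected in every library of the other groups. It was at 0.118 to 5.06 (median 1.91) FPKM in N1het healthy, 8.86, 1.99 and 1.88 FPKM in N1het stenosis, 0.244, 0.32, 1.94, 8.99 and 6.26 FPKM in N1het healthy XCT790 and 0.992, 0.747 and 3.66 FPKM in N1het stenosis XCT790. N1het healthy and stenotic valves overlapped (0.71 ± 0.66).

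Among the kinesins and spindle binders, Kif11, Prc1 and Kif23 had the larger differences in stenosis, and those of Kif20a and Nusap1 were under their SE. Kif11, the motor that pushes the spindle poles apart, was at 4.35, 6.74 and 3.63 FPKM in N1het stenosis and 0.0324 to 2.68 (median 2.15) FPKM in N1het healthy, without overlap (1.29 ± 0.48, adjusted p = 0.349). It was at 2.65, 4.01, 0.627 and 2.54 FPKM in WT, 3.07, 1.23, 1.38, 2.41 and 4.23 FPKM in N1het healthy XCT790 and 1.45, 1.22 and 3.18 FPKM in N1het stenosis XCT790. Prc1, which bundles the microtubules of the central spindle, was also apart, at 9.5, 3.68 and 6.92 FPKM against 0.83 to 3.44 (median 1.73) FPKM (1.34 ± 0.56, adjusted p = 0.437), although WT was at 8.82, 0.0939, 0.856 and 3.4 FPKM. XCT790-treated valves held 3.2, 1.29, 1.51, 2.8 and 4.79 FPKM (healthy) and 3.74, 0.676 and 3.5 FPKM (stenotic) of it. Kif23, a kinesin of cytokinesis, was at 10.4, 4.89 and 4.51 FPKM in N1het stenosis and 0.0461 to 9 (median 0.725) FPKM in N1het healthy, where 1 library stood within the stenotic range (1.70 ± 0.62, adjusted p = 0.349). WT was at 3.59, 0.738, 1.4 and 3.35 FPKM, N1het healthy XCT790 at 1.02, 1.92, 2.12, 4.59 and 4.78 FPKM and N1het stenosis XCT790 at 2.32, 0.825 and 7.23 FPKM. Kif20a, another kinesin of cytokinesis, was at 4.82, 0.211 and 0.257 FPKM in N1het stenosis and 0.0412 to 3.23 (median 1.13) FPKM in N1het healthy (0.02 ± 0.69), and its highest value was in WT 3 (6.17 FPKM). Nusap1, which binds spindle microtubules, was at 1.48, 1.92 and 1.87 FPKM in N1het stenosis and 0.951 to 3.48 (median 1.32) FPKM in N1het healthy (0.14 ± 0.43). It was at 0.167, 2.76, 3.46 and 1.89 FPKM in WT, 2.31, 1.25, 3.09, 3.7 and 1.49 FPKM in N1het healthy XCT790 and 1.7, 1.84 and 3.18 FPKM in N1het stenosis XCT790, so every group overlapped every other. Kif2c, which shortens microtubules at kinetochores, was above 1 FPKM in 3 of 21 libraries, with 1.9, 0.181 and 0 FPKM in N1het stenosis, 0.0123 to 0.801 (median 0.0284) FPKM in N1het healthy and 3.74, 0.0216, 0 and 0.463 FPKM in WT. After XCT790 it was at 0, 0, 0.235, 0.999 and 2.96 FPKM in healthy and 0.884, 0.22 and 0.258 FPKM in stenotic valves.

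The 2 genes commonly used as marks of proliferation overlapped between all groups. Mki67, which coats mitotic chromosomes, was at 19.2, 17.6 and 9.88 FPKM in N1het stenosis and 5.58 to 18.5 (median 6.72) FPKM in N1het healthy, and 2 of the 3 stenotic libraries lay above 5 of the 6 healthy ones (0.77 ± 0.42, adjusted p = 0.594). WT was at 8.95, 30.9, 6.68 and 7.41 FPKM, and WT 2 held the highest value of all libraries. After XCT790 it was at 8.86, 9.99, 8, 6.25 and 11.9 FPKM in healthy and 7.88, 8.21 and 9.91 FPKM in stenotic valves. Top2a, the topoisomerase that untangles sister chromatids, was at 3.91, 4.9 and 10.6 FPKM in N1het stenosis, 0.922 to 4.77 (median 3) FPKM in N1het healthy and 0.841, 1.8, 3.14 and 4.7 FPKM in WT (0.86 ± 0.44 against N1het healthy, adjusted p = 0.559). It was at 2.05, 2.34, 3.5, 3.09 and 6.04 FPKM in N1het healthy XCT790 and 2.29, 2.72 and 4.9 FPKM in N1het stenosis XCT790.

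**Figure D4:**
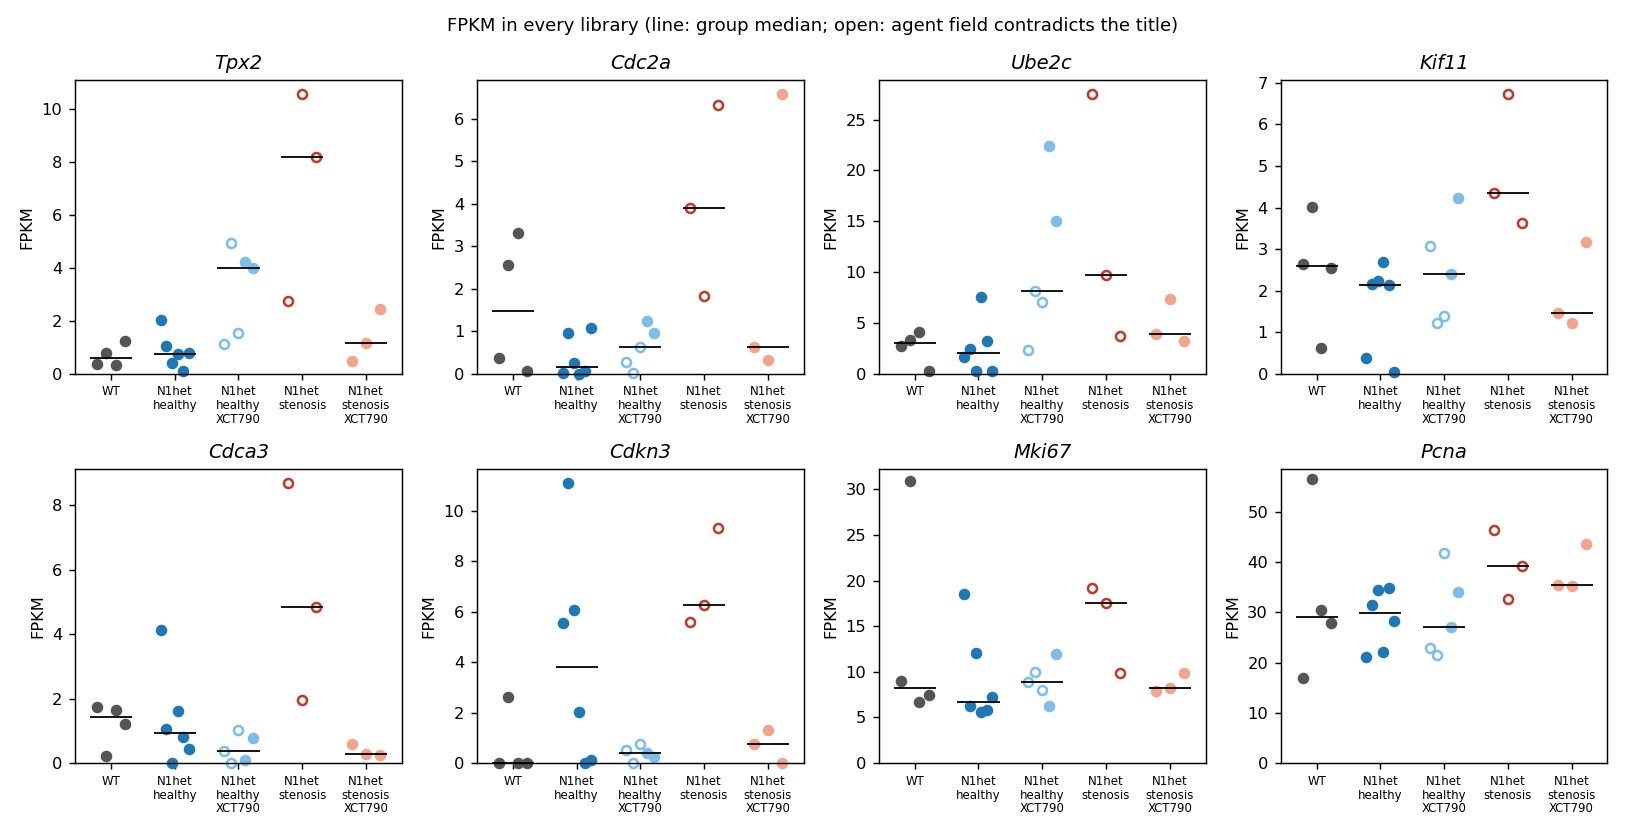
FPKM of 7 mitotic genes and of the S-phase gene Pcna in each library by group, with a line at the group median, open circles for libraries whose agent field contradicts the title, and a separate axis from 0 for each gene. N1het stenosis lies above N1het healthy without overlap for Tpx2, Cdc2a and Kif11 and overlaps it for the other 5 genes.

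No S-phase gene separated stenotic from healthy N1het valves. Pcna, the replication clamp, was at 46.4, 32.6 and 39.2 FPKM in N1het stenosis, 21.2 to 34.8 (median 29.9) FPKM in N1het healthy and 17, 56.5, 30.4 and 27.8 FPKM in WT (0.45 ± 0.29 against N1het healthy, adjusted p = 0.681). It was at 23, 21.5, 41.9, 27.1 and 34.1 FPKM in N1het healthy XCT790 and 35.4, 35.1 and 43.5 FPKM in N1het stenosis XCT790. Its range in WT, 17 to 56.5 FPKM, held every other library. Of the replicative helicase, Mcm5 had the smallest p, at 1.41, 8.54 and 7.37 FPKM in N1het stenosis and 0.089 to 3.73 (median 2.16) FPKM in N1het healthy (1.03 ± 0.62, adjusted p = 0.651). WT was at 0.23, 1.75, 1.49 and 6.32 FPKM, N1het healthy XCT790 at 1.27, 6.21, 2.28, 4.52 and 13.4 FPKM and N1het stenosis XCT790 at 4.96, 7.84 and 5.02 FPKM, and 1 stenotic library lay within the healthy range.

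The other helicase genes leaned in both directions. Mcm2 was at 1.25, 2.3 and 2.14 FPKM in N1het stenosis and 0.57 to 5.6 (median 3.35) FPKM in N1het healthy (-0.34 ± 0.54). It was at 0.975, 0.258, 8.68 and 2.38 FPKM in WT, 4.91, 1.32, 2.85, 4.5 and 2.71 FPKM in N1het healthy XCT790 and 2.97, 3 and 3.76 FPKM in N1het stenosis XCT790. Mcm3 was at 13.2, 7.68 and 7 FPKM in N1het stenosis, 5.89 to 9.27 (median 8.5) FPKM in N1het healthy and 6.9, 3.86, 6.65 and 6.61 FPKM in WT, where all 4 values lay under the lowest stenotic one (0.53 ± 0.34 against WT). XCT790-treated valves had 10.7, 12.4, 9.69, 14.1 and 5.44 FPKM (healthy) and 7.59, 8.7 and 13.1 FPKM (stenotic) of it. Mcm4 was at 7.77, 8.68 and 7.4 FPKM in N1het stenosis, 6 to 16.4 (median 10.6) FPKM in N1het healthy and 6.95, 6.24, 19.4 and 3.38 FPKM in WT (-0.32 ± 0.39 against N1het healthy). With XCT790 its values were 9.43, 16.4, 8.67, 9.99 and 11.9 FPKM in healthy and 10.9, 6.6 and 17.3 FPKM in stenotic valves. Mcm6 was at 22.3, 17.7 and 14 FPKM in N1het stenosis, 10.1 to 17.1 (median 12.8) FPKM in N1het healthy and 9.89, 15.8, 23.5 and 2.15 FPKM in WT, and the value of WT 4 was the lowest of all libraries. With XCT790 it was at 10.9, 11.8, 20.3, 20.5 and 13.2 FPKM in healthy and 13.1, 11.9 and 11.3 FPKM in stenotic valves.

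Rrm2 and Tyms, which make deoxynucleotides, were each lower on average in stenosis, by less than 1 SE. Rrm2 was at 0.716, 2.52 and 3.46 FPKM in N1het stenosis, 0.223 to 5.37 (median 2.88) FPKM in N1het healthy and 7.33, 3.16, 4 and 0.686 FPKM in WT (-0.16 ± 0.55 against N1het healthy). XCT790 libraries held 2.37, 1.09, 1.59, 0.948 and 4.04 FPKM (healthy) and 1.39, 2.06 and 0.517 FPKM (stenotic). Tyms was at 1.97, 2.02 and 1.61 FPKM in N1het stenosis, 1.26 to 4.2 (median 2.29) FPKM in N1het healthy and 1.64, 2.6, 3.55 and 0.117 FPKM in WT (-0.26 ± 0.44 against N1het healthy). XCT790 libraries held 0.854, 1.4, 1.72, 1.59 and 1.61 FPKM (healthy) and 3.58, 3.54 and 1.36 FPKM (stenotic). The E-type cyclins, which drive entry into S phase, differed from each other. Ccne1 was listed at 0 in 10 of 21 libraries and above 1 FPKM in 3, N1het healthy 5 and N1het stenosis 2 and 3. In stenosis its difference had the sign of most mitotic genes, 0.63 ± 0.31 against N1het healthy and 0.94 ± 0.34 against WT. The latter was at an unadjusted p of 0.0116 by the limma fit without the filter (adjusted p = 0.415). Ccne1 had the opposite sign to most of them in N1het healthy against WT, for XCT790 in healthy valves and in stenosis among XCT790-treated valves. It stood at 0.0249, 1.19 and 2.48 FPKM in N1het stenosis, 0 to 1.21 (median 0.0253) FPKM in N1het healthy, 0.0524, 0, 0.0841 and 0 FPKM in WT, 0, 0, 0.303, 0 and 0 FPKM in N1het healthy XCT790 and 0.0483, 0.339 and 0 FPKM in N1het stenosis XCT790. Ccne2 was at 0.757, 2.11 and 1.07 FPKM in N1het stenosis, 0.757 to 1.88 (median 1.53) FPKM in N1het healthy and 3.88, 2.06, 1.82 and 2.06 FPKM in WT. It was at 2.22, 0.541, 1.73, 0.359 and 0.571 FPKM in N1het healthy XCT790 and 2.54, 2.02 and 1.31 FPKM in N1het stenosis XCT790, and its difference in stenosis was -0.09 ± 0.39.

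Against WT, stenotic N1het valves had higher levels of 23 of the 26 mitotic genes, with a median log2 difference of 1.02, against 54.3% of all genes and a median of 0.06. This comparison uses the same 3 stenotic libraries as the one above. Cdkn3 differed by 2.52 ± 0.72 (adjusted p = 0.239), Tpx2 by 2.16 ± 0.51 (adjusted p = 0.175), Cdc20 by 2.02 ± 0.71 (adjusted p = 0.333) and Aurkb by 1.71 ± 0.58 (adjusted p = 0.321). In each of these 4 genes the 3 stenotic libraries lay above all 4 WT libraries. That held for 9 of the 26 mitotic genes and 1 of the 8 S-phase genes, Mcm3, against 5.05% of all genes tested. The other 5 mitotic genes were Cdca3 (1.39 ± 0.54), Kif23 (1.25 ± 0.67), Bub1 (1.25 ± 0.52), Bub1b (0.98 ± 0.60) and Plk1 (0.94 ± 0.67). Of these, Cdca3 passed the filter only with N1het stenosis included, the group in which it was high. No member passed the test, which 0.0334% of all genes did (5 genes). At an unadjusted p under 0.05, 9 of the 26 mitotic genes were higher and 0 lower, against 6.35% of all genes tested that were higher, and limma-voom gave 10 of the 23 that passed the filter with 0 called. Without N1het stenosis 1 the number among those 23 was 4, against 8 with it. Macrophage markers were higher in 24 of 24 here too (median 1.27, 17 at an unadjusted p under 0.05, 1 called), and their part was not tested. The authors' deposited table marks Tpx2 and Cdc20 as changed in this comparison, where it marks 1.35% of its genes.

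In healthy N1het against WT valves, 10 of the 26 mitotic genes were higher and 16 lower, with a median of -0.11. Of the 8 S-phase genes 6 were higher with a median of 0.32. Over all genes tested, 57.6% were higher, and the median was 0.09. Cdkn3 (1.35 ± 0.61, adjusted p = 0.642) and Cdc20 (1.32 ± 0.60, adjusted p = 0.646) were higher at an unadjusted p under 0.05, as 7.42% of all genes were in either direction. Both were listed at 0 in 3 of the 4 WT libraries. The authors' deposited table marks Cdc20 and no other member in this comparison, where it marks 0.666% of its genes. It marks no member for XCT790 against solvent in healthy or in stenotic valves, where it marks 0.125% and 0.268% of its genes. Neither limma nor limma-voom called a member, and limma called 0.0% of all genes. Neither gene was at an unadjusted p under 0.05 without WT 1, without WT 4, without N1het healthy 2 or without N1het healthy 3. The median of the mitotic genes changed sign without WT 2 (0.06), WT 3 (0.06), N1het healthy 3 (0.00) or N1het healthy 6 (0.04). 1 of the 2 was at that p without WT 2, WT 3, N1het healthy 1 or N1het healthy 4. The S-phase median was -0.17 without WT 1, WT 4 and N1het healthy 3 together. The largest lower value was that of Cdc2a, -0.72 ± 0.53, with 2 WT libraries above all 6 N1het healthy ones and 2 within their range.

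In healthy N1het valves, XCT790 went with somewhat higher mitotic levels in part of the libraries: 20 of the 26 genes were higher, with a median of 0.27, against 54.0% of all genes and a median of 0.04. Ube2c (1.79 ± 0.58) and Tpx2 (1.13 ± 0.40) were higher at an unadjusted p under 0.05 and Cdkn3 (-1.37 ± 0.57) lower, against 1.63% and 1.02% of all genes tested. Each had an adjusted p of 1, and limma called 0.0% of all genes. limma-voom gave 2 higher and 0 lower with 0 called. Ube2c was above 7 FPKM in 4 of 5 XCT790 libraries and 1 of 6 solvent libraries, and Tpx2 above 3 FPKM in 3 of 5 and 0 of 6. Cdca8 (0.73 ± 0.47) and Kif23 (0.70 ± 0.53) came next by p and overlapped between the groups. With the agent field as the group label, which leaves only N1het healthy XCT790 4 and 5 as treated, 22 of the 26 were higher with a median of 0.51, and 4 were at an unadjusted p under 0.05. Leaving out the deepest 6 libraries, which removes N1het healthy XCT790 1 and 2, gave a median of 0.55 and the same number. Cdkn3 was not at an unadjusted p under 0.05 in either of these fits, nor without N1het healthy 1, 2 or 3 or N1het healthy XCT790 2. The median was 0.14 without N1het healthy XCT790 5 and 0.45 without N1het healthy XCT790 2. Macrophage and monocyte markers moved the same way, 23 of 24 higher with a median of 0.55, 5 at an unadjusted p under 0.05 and 0 called. Their sum was 1712, 2062, 3851, 4203 and 5124 FPKM in N1het healthy XCT790 1 to 5, so the 3 libraries with the highest mitotic sums of the group also had the highest marker sums. Their part was not tested. Of the 8 S-phase genes 6 were higher with a median of 0.13, led by Mcm5 (0.92 ± 0.53).

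In stenotic N1het valves, XCT790 went with lower levels of most mitotic genes: 23 of the 26 were lower, with a median of -0.53, while 57.6% of all genes were higher with a median of 0.09. Cdkn3 (-2.31 ± 0.77), Cdca3 (-2.02 ± 0.58) and Tpx2 (-1.72 ± 0.54) were lower at an unadjusted p under 0.05, as 0.815% of all genes tested were, and Birc5 (1.60 ± 0.67) was higher, as 2.53% were. Ccne1, fitted without the filter, was also lower (-0.82 ± 0.36). The 4 mitotic genes each had an adjusted p of 1. Cdca3 was at 0.583, 0.276 and 0.25 FPKM with XCT790 against 8.68, 1.97 and 4.84 FPKM with solvent, and Cdkn3 at 0.751, 1.32 and 0 FPKM against 5.6, 6.26 and 9.33 FPKM. The 3 treated libraries lay below all 3 solvent ones for Cdkn3, Cdca3, Tpx2 and Kif11 (-1.03 ± 0.55), 4 of 26 against 2.66% of all genes tested. They lay above the solvent ones for Birc5, 1 of 26 against 6.09%. Of these genes, Cdca3 passed the filter only with N1het stenosis included, the group in which it was high (mean 0.903 FPKM without that group). Among the S-phase genes Mcm6 (-0.52 ± 0.49) was apart and lower and Mcm2 (0.57 ± 0.63) apart and higher, and the median of the 8 was 0.16.

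limma called 0.0% of all genes in this comparison, and limma-voom gave 4 mitotic genes lower and 0 higher at an unadjusted p under 0.05 with 0 called. N1het stenosis XCT790 3 stood apart from the other 2 treated libraries: its mitotic sum was 101 FPKM against 44.6 and 45.7 FPKM, with Cdc2a at 6.59 FPKM against 0.635 and 0.328 FPKM. Without it the median was -0.82 and 6 mitotic genes were lower at an unadjusted p under 0.05, and Birc5, at 11.6 FPKM in that library, was no longer at an unadjusted p under 0.05, nor was it without N1het stenosis 3. Without WT 1, WT 4 and N1het healthy 3, which enter only the estimate of the spread, 5 were lower. The macrophage markers had a summed level of 2450, 6370 and 10506 FPKM in N1het stenosis XCT790 1 to 3, against 7059, 4842 and 8912 FPKM in N1het stenosis 1 to 3, and 23 of 24 were lower (median -0.35). The 6 mitochondrially encoded genes were all lower (median -1.30, 0 at an unadjusted p under 0.05). Their part was not tested. The solvent side of this comparison is the 3 libraries whose agent field gives XCT790, so by that field both sides had XCT790. These libraries are also the stenotic side of the comparisons with healthy valves.

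The XCT790 difference in stenotic valves was set against that in healthy valves as an interaction. For the mitotic genes the median was -0.84, with 23 of 26 below 0, against 0.05 for all genes tested, of which 54.0% were above 0. Tpx2 (-2.84 ± 0.68, adjusted p = 0.974), Ube2c (-2.81 ± 0.97) and Kif11 (-1.51 ± 0.69) were below 0 at an unadjusted p under 0.05, as 0.962% of all genes were, and limma called 0.0%. limma-voom gave 4 below 0 with 0 called. Tpx2 was higher with XCT790 in healthy valves and lower with it in stenotic valves, and all 4 groups of libraries enter that value. Macrophage markers were below 0 in 24 of 24, with a median of -0.95 and 1 at an unadjusted p under 0.05, and the 6 mitochondrially encoded genes were also all below 0 (median -0.82). Their part was not tested. The median of the mitotic genes was -0.56 without N1het stenosis 1, and 6 genes were at an unadjusted p under 0.05 without N1het stenosis XCT790 3. For the 8 S-phase genes the median was -0.12.

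Among XCT790-treated valves, neither class leaned one way between stenotic and healthy ones. Of the 26 mitotic genes 12 were higher and 14 lower with a median of -0.02, and of the 8 S-phase genes 4 were higher with a median of 0.02, against 53.4% of all genes and a median of 0.04. No member was at an unadjusted p under 0.05 in limma or limma-voom, against 5.08% of all genes tested by limma, which called 0.0%. Without N1het stenosis XCT790 2, 1 mitotic gene was higher at that p. The mitotic median was -0.22 without N1het stenosis XCT790 3 and 0.18 without N1het healthy XCT790 5. Aurkb (1.09 ± 0.55, adjusted p = 0.958) was the 1 mitotic gene whose stenotic libraries lay above all healthy ones, against 2.06% of all genes tested. Birc5 (1.05 ± 0.60), Tpx2 (-0.78 ± 0.49), Aurka (0.98 ± 0.66) and Cdc2a (0.70 ± 0.60) came next by p, and Cdc2a was below 0 without N1het stenosis XCT790 3 (-0.086). Unlike the mitotic genes, macrophage and monocyte markers leaned one way here, with 23 of 24 higher in stenotic valves (median 0.40, 2 at an unadjusted p under 0.05, 0 called). Of the 14 interstitial and fibroblast markers 0 were higher (median -0.39), and the 6 mitochondrially encoded genes were all higher (median 0.89). Their part was not tested.

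Averaged over solvent and XCT790, stenotic N1het valves were above healthy ones for 25 of the 26 mitotic genes, with a median of 0.53, against 50.1% of all genes and a median of 0.00. It is made of the same libraries as the comparisons within each agent. limma called 0.374% of all genes here (56 genes) and no member. Cdc2a (1.26 ± 0.41, adjusted p = 0.216), Aurkb (1.10 ± 0.38, adjusted p = 0.247) and Aurka (0.97 ± 0.46, adjusted p = 0.425) were higher at an unadjusted p under 0.05, against 6.01% of all genes tested, and limma-voom gave 5 with 0 called. The number was 5 without N1het healthy 1. Macrophage markers were higher in 24 of 24 (median 0.93, 19 at an unadjusted p under 0.05), and 2 of them were called. Of the 14 interstitial and fibroblast markers 13 were lower (median -0.62, 10 at that p), and 4 of them were called. The 6 mitochondrially encoded genes were all higher (median 1.24, 0 at that p). Their part in the mitotic values was not tested. Kif23 (0.87 ± 0.45) and Cdca3 (0.70 ± 0.36) came next. Of the 8 S-phase genes 5 were higher with a median of 0.06, and Pcna had the smallest p (0.42 ± 0.21, adjusted p = 0.457), followed by Mcm5 (0.70 ± 0.45) and Rrm2 (-0.25 ± 0.39).

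Other genes of the cell cycle, 171 in 10 lists of which 139 passed the filter, were described in the same way. In stenotic against healthy N1het valves 93 of the 139 were higher and 46 lower (median 0.22), with 14 higher and 1 lower at an unadjusted p under 0.05 and 0 called. Of all genes tested 46.8% were higher, and 4.59% were higher at that p. The list of further kinesins and cytokinesis genes had 15 of 16 higher with a median of 0.88 and mitotic entry genes 11 of 13 with 0.55. Further kinetochore and checkpoint genes had 11 of 16 higher with a median of 0.30, condensins and cohesins 9 of 12 with 0.14, and genes of proteolysis in the cycle 7 of 15 with a median of 0.00. Of the replication lists, origin licensing and firing genes had 7 of 15 higher with -0.02 and fork and nucleotide genes 14 of 25 with 0.13. Genes of the Rb and E2F list had 9 of 12 higher with a median of 0.26. G1 cyclins and kinases had 6 of 9 with 0.10 and Cdk inhibitors 4 of 6 with 0.08. The mitotic lists thus ran from the largest median to one near 0, and those of condensins and of forks were close. The median of the Rb and E2F list was near that of the kinetochore list and above that of the condensins. Ccnd1, cyclin D1, which carries growth signals into the cycle, was at 128 ± 5.67 FPKM (SD, n = 3) in N1het stenosis and 68.4 ± 13 FPKM (SD, n = 6) in N1het healthy (0.92 ± 0.25, adjusted p = 0.21). Averaged over both agents its difference was 0.82 ± 0.18 with an adjusted p of 0.0508. It was at 121 ± 40.3 FPKM (SD, n = 3) in N1het stenosis XCT790 and 73.3 ± 26.7 FPKM (SD, n = 5) in N1het healthy XCT790 (0.72 ± 0.26), so the stenotic mean was the higher one with either agent. The chromokinesin Kif4 was at 4.36 ± 1.92 FPKM (SD, n = 3) in N1het stenosis and 0.672 ± 0.683 FPKM (SD, n = 6) in N1het healthy (1.70 ± 0.49), and Hmmr, a spindle protein, at 5.14 ± 3.73 and 0.895 ± 0.65 FPKM (1.47 ± 0.52).

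Against WT, stenotic valves had higher Kif4 (2.11 ± 0.53), Sgol2, a protector of centromeric cohesion (1.63 ± 0.47), and Ckap2, a spindle protein (1.60 ± 0.55), none of which passed the test. At an unadjusted p under 0.05, 14 of the 139 were higher and 3 lower, and 6.35% of all genes tested were higher. From these lists the authors' deposited table marks Kif4, Sgol2, Pbk and Kif18b there, with 1.35% of its genes marked. In N1het healthy against WT it marks Kif18b, with 0.666% of its genes marked. In healthy N1het against WT valves the smallest p values were those of Cdc27, a subunit of the anaphase-promoting complex (0.58 ± 0.20), Rfc4, of the clamp loader (1.55 ± 0.58), and Ncaph2, of condensin II (0.76 ± 0.29). At an unadjusted p under 0.05, 5 of the 139 were higher there and 1 lower, against 7.42% of all genes in either direction. For XCT790 in healthy valves the smallest p values were those of Ckap5 (0.53 ± 0.22) and Cdc45 (1.22 ± 0.53), higher, and Cdc27 (-0.41 ± 0.19), lower. At that p 3 were higher and 2 lower, against 1.63% and 1.02% of all genes tested. For XCT790 in stenotic valves they were those of Kif4 (-1.52 ± 0.57) and Dlgap5, of the spindle (-1.55 ± 0.70), lower, and Pttg1, securin (0.62 ± 0.29), higher. At that p 1 was higher and 3 lower, against 2.53% and 0.815% of all genes tested. Among XCT790-treated valves, after Ccnd1, they were those of Ube2s, lower in stenosis (-1.86 ± 0.77), and Pola2, which primes replication, higher (1.33 ± 0.56). At that p 2 were higher and 3 lower, against 5.08% of all genes in either direction. Averaged over agents, again after Ccnd1, they were those of Cdkn1b, the cyclin-dependent kinase inhibitor p27, lower in stenosis (-0.79 ± 0.27), and Sgol2, higher (0.91 ± 0.31). At that p 9 were higher and 3 lower, and 6.01% of all genes tested were higher. Kif4 (-2.27 ± 0.71), Dlgap5 (-2.17 ± 0.87) and Cenpq, of the kinetochore (2.02 ± 0.77), had the smallest p for the interaction. At that p 1 was above 0 and 3 below it, and 0.962% of all genes tested were below it. None of the 139 was called in any of the 8 comparisons.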

How the data were processed

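RNA of directly lysed valves was extracted with an RNeasy Micro kit and amplified with the NuGEN Ovation V2 system, per the labels' protocols. The deposited table holds FPKM values for 21 libraries and 20872 genes, made by the authors, with FastQC, HISAT2, SAMtools, Picard and the build mm9 named in the submitters' processing notes. Not given in the sources used here were the counting program, the annotation, the strand setting and the test behind the marks of the authors. The sample titles set the groups.

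All 348565 nonzero values gave whole reads (within 0.01) when divided by the value of 1 read, which gave 8.42 to 27.3 M reads per library (median 13.7). Reads of amplified RNA without molecular identifiers are not independent molecules. log2(FPKM + 1) was fitted with limma 3.58.1 (R 4.3.3, statmod 1.5.0), with trend and robust settings and all 5 groups in 1 model. The 14966 genes with a mean of at least 1 FPKM were tested in 8 contrasts with Benjamini-Hochberg adjustment, and 5906 were left out. The fits were tested on simulated data. limma-voom on the recovered reads, another pseudocount, filters, scaling, terms and left-out libraries were alternatives.

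Every member was accounted for. Library values are given for members with the 5 smallest p (mitotic) or the 3 smallest p (S phase) in any contrast, for Mki67, Top2a, Pcna and Ccnb1 and for those with a library far from its group, and values of further members were added after they were seen. Of the pathway lists the 3 genes of smallest p per contrast are named. 11 list genes were matched by identifier. The members and lists were chosen with earlier results of these data known.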

Additional observations from a re-analysis of the deposited data

Results flagged for a closer look

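Each of the 36 genes was screened in the 3 groups of 4 to 6 libraries for 1 library far from the others (Dixon's test at 95%), and 12 of 108 sets of values had one (11.1%). For normal values chance gives about 1 in 20 such sets. Some sets here hold values tied at 0, and genes of 1 library are not independent, so that rate is no fair reference for them. WT held 8 of the 12. In WT 1, Ccne2 was at 3.88 FPKM against 1.82 to 2.06 FPKM in the other 3 WT libraries, and Cenpe at 0.404 FPKM against 1.08 to 1.18 FPKM. In WT 2, Ccnb1 was at 3.76 FPKM against 0 to 0.287 FPKM, Cdkn3 at 2.61 FPKM against 0 in the others, Mcm3 at 3.86 FPKM against 6.61 to 6.9 FPKM, and Cenpf at 0.00849 FPKM against 1.42 to 1.81 FPKM. In WT 3, Aurkb was at 1.67 FPKM against 0 to 0.0403 FPKM and Cdc20 at 0.37 FPKM against 0. In N1het healthy, Ccnb1 was at 1.07 FPKM in library 3 against 0 to 0.239 FPKM, Kif2c at 0.801 FPKM in library 2 against 0.0123 to 0.16 FPKM, and Nusap1 at 3.48 FPKM in library 4 against 0.951 to 1.49 FPKM. In N1het healthy XCT790, Ccne1 was at 0.303 FPKM in library 3 and at 0 in the others.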

How the results depend on the processing

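No member was called by limma or limma-voom under any of the 33 settings. The median log2 difference of the mitotic genes in stenosis against N1het healthy was 1.73 with a pseudocount of 0.1, 2.09 by limma-voom and 1.38 at a mean of 5 FPKM or more, where Mki67 and Ube2c were left. In stenosis against WT it was 1.95 with a pseudocount of 0.1 and 2.26 by limma-voom, for the average over agents 1.12 by limma-voom, for XCT790 in healthy valves 0.93 at 5 FPKM or more, and for the interaction -1.43, -1.61 and -1.80 with these 3 settings in turn. Without WT 1, WT 4 and N1het healthy 3, a choice made after seeing the data, the S-phase median was -0.17 for N1het healthy and -0.20 for N1het stenosis against WT, Mcm4 was at -0.25 and Mcm6 at -0.56 in the first, and Mcm6 at -0.12 in the second. The cause was not tested. With a pseudocount of 0.1, limma-voom and 5 FPKM or more in turn, the mitotic median was -0.85, -0.95 and -0.87 for XCT790 in stenotic valves (-0.53 as reported), -0.015, 0.08 and -0.26 in N1het healthy against WT, and 0.13, 0.29 and -0.42 in stenosis among XCT790-treated valves. With the first 2 it was 0.52 and 0.52 for XCT790 in healthy valves, and with the first 0.86 for the average over agents. Leaving out 1 library at a time, Mcm6 in N1het healthy against WT ran from -0.22 to 0.77 and Cdc2a in stenosis among XCT790-treated valves from -0.086 to 1.17. The mitotic median ran from 0.68 to 1.12 in stenosis against N1het healthy, from 0.91 to 1.21 against WT, from -0.82 to -0.36 for XCT790 in stenotic valves and from -1.07 to -0.56 for the interaction. With the agent field as the label, 1 mitotic gene was higher in N1het healthy against WT and 1 lower in stenosis among XCT790-treated valves at an unadjusted p under 0.05. Libraries of 1 number did not deviate together over all genes tested (mean r 0.010 over 34 pairs, against -0.003 over 139 others). No pairing by number was seen, but this mean cannot exclude one. With the replicate number as a block, the mitotic median in stenosis against N1het healthy was 0.79 with 9 genes at an unadjusted p under 0.05, in N1het healthy against WT 1 gene was, and none was called. Many mitotic genes have under 10 reads in a library, which limits the precision of their values.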
